A study of Mus musculus with 4 samples.

Results

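The stathmin family was followed in RNA-seq counts of embryonic mouse retinas that had lost the transcription factor Nrf1. The family comprised the rows of *Stmn1*, *Stmn2*, *Stmn3* and *Stmn4* in the count table, 4 genes of 24062, which were chosen by name. Retinas of mice of the C57BL/6 129 mixed strain were taken at E13.5 and gave 4 libraries, 2 from wild type (WT) and 2 from Nrf1-CKO embryos. Nrf1-CKO embryos carried floxed *Nrf1* alleles and the *Six3-Cre* transgene, whose Cre removes exon 4 of *Nrf1* in proliferating retinal progenitor cells and starts to act in the central retina. The WT embryos are labelled only as wild type, with no mention of Cre. Each library came from pooled retinas of several littermates, so that p-values measure the spread between 2 pools per genotype.

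Stathmins are small phosphoproteins that bind tubulin dimers and promote the shrinkage of microtubules, and phosphorylation of their serines releases the tubulin. Stmn1 is cytosolic and is made in many dividing cells as well as in young neurons. Stmn2 (SCG10), Stmn3 (SCLIP) and Stmn4 (RB3) are neuronal proteins with an added front end that is anchored to Golgi and vesicle membranes through palmitoylated cysteines. Stmn2 is also found in growth cones, and retinal ganglion cells (RGCs), the first neurons born in the retina, are the cells that send axons out of the eye.

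The start of each coding sequence is shown because it is where cytosolic Stmn1 and the membrane-bound members differ. The sequences are the first 90 coding bases of the longest complete coding transcript in the GENCODE annotation of GRCm38, written 5′ to 3′, with the codons for cysteine in capitals.
Stmn1: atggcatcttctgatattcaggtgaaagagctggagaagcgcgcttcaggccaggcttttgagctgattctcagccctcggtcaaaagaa
Stmn2: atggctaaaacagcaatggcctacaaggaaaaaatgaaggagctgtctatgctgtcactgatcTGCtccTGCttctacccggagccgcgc
Stmn3: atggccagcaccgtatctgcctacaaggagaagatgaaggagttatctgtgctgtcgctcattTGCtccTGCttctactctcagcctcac
Stmn4: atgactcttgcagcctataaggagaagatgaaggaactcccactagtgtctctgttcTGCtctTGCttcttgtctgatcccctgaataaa

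The stretch of *Stmn1* held no cysteine codon. *Stmn2* and *Stmn3* each had them at codons 22 and 24, and *Stmn4* at codons 20 and 22. The coding sequences were 149 codons long in *Stmn1*, 179 in *Stmn2*, 180 in *Stmn3* and 216 in the *Stmn4* transcript shown. Pairwise identity of the aligned coding bases ran from 69.3% for *Stmn1* and *Stmn3* to 73.5% for *Stmn2* and *Stmn3*. The longest run of bases shared between transcripts of 2 members was 20, much shorter than the 100-base reads.

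All 4 genes are protein coding and lie on different chromosomes of GRCm38. *Stmn1* (ENSMUSG00000028832) spans bases 134468320 to 134473843 of chromosome 4 on the plus strand, with 4 to 5 exons per transcript. *Stmn2* (ENSMUSG00000027500) spans bases 8509360 to 8561606 of chromosome 3 on the plus strand, with 5 exons. *Stmn3* (ENSMUSG00000027581) lies on the minus strand of chromosome 2 from 181306459 to 181314500, also with 5 exons. *Stmn4* (ENSMUSG00000022044) lies on the plus strand of chromosome 14 from 66344296 to 66361680, with 5 to 8 exons. No gene of the count table overlapped any of them. Of the 961 windows of 100 bases in the longest *Stmn1* transcript, 251 (26.1%) also occurred in transcripts of *Gm11223*, so the counts of *Stmn1* may miss reads that were not unique, and no such window was found for *Stmn2*, *Stmn3* or *Stmn4*.

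The libraries had between 74577660 and 85933945 reads counted on genes, and 15762 genes passed the filter on low counts, all 4 stathmin genes among them. The genotype cannot be checked from whole-gene counts of *Nrf1* (9052 and 7789 reads in WT, 8594 and 8284 in Nrf1-CKO), because they do not separate the deleted exon 4 from the rest. Markers of RGCs and of progenitors were present in all libraries. The 8 lens markers were higher in Nrf1-CKO, where their summed level was 7127 and 2895 CPM against 130 and 342 CPM in WT. CPM denotes counts of a gene scaled to a common library size with edgeR's TMM factors.

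All 4 stathmin genes were lower in Nrf1-CKO than in WT retinas, *Stmn3* and *Stmn2* by the most and *Stmn1* and *Stmn4* by less. *Stmn3* was left at 22.6% of its WT level and *Stmn2* at 29.3%, whereas *Stmn1* was left at 58.1% and *Stmn4* at 59.8%. The comparison used edgeR's quasi-likelihood test, with Benjamini-Hochberg adjustment over all tested genes, and a gene counted as called where it differed at least 1.4-fold with an adjusted p not above 0.2. These thresholds are also the ones the study used. By this rule 4 of the 4 members were called lower, against 8.04% of all tested genes. Both Nrf1-CKO libraries lay below both WT libraries for each of the 4, which was true of 31.6% of tested genes, while 30.9% had both above and 62.5% had no overlap in either direction. The median log2 fold change of the 4 was -1.28, beside 0.00073 over all tested genes. *Stmn2* and *Stmn3* were among the genes that the study itself picked from these libraries, so their direction is not independent evidence. In bulk RNA, fewer cells that make a transcript and less of the transcript per cell cannot be told apart.

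*Stmn2*, the growth cone stathmin, had 26173 and 23987 reads in the WT libraries and 8647 and 6481 reads in the Nrf1-CKO libraries. The genotypes were far apart, and the second Nrf1-CKO library was the lowest. Its mean fell from 311 ± 17.4 to 91.2 ± 18.2 CPM (SD, n = 2), which is 3.41-fold lower. The log2 fold change was -1.77 (standard error 0.129, 95% interval -2.06 to -1.48, adjusted p = 9.88e-05 from edgeR). The mean of *Stmn2* over WT and Nrf1-CKO libraries together stood at the 94.2 percentile of such means among tested genes, in CPM not divided by length. Its fold change was at rank 195 of the 15762 tested genes counted from the most negative.

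*Stmn3* had the largest fold change of the family. It had 7742 and 8113 reads in WT and 2071 and 1641 reads in Nrf1-CKO, with the second Nrf1-CKO library again the lowest. The mean fell from 98.9 ± 14.8 to 22.4 ± 3.60 CPM (SD, n = 2), 4.42-fold lower, and the log2 fold change was -2.14 (standard error 0.135, 95% interval -2.45 to -1.84, adjusted p = 7.02e-05 from edgeR). This placed *Stmn3* at rank 111 of the 15762 tested genes counted from the most negative fold change. Calls with a fold change of at least 4 in this direction made up 0.787% of tested genes.

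*Stmn1*, the cytosolic member, had 19975 and 14905 reads in WT and 10138 and 10517 reads in Nrf1-CKO. The Nrf1-CKO libraries were nearly equal, and both were below the lower WT library. Its mean fell from 215 ± 19.2 to 125 ± 3.59 CPM (SD, n = 2), 1.72-fold lower. The log2 fold change was -0.78 (standard error 0.0861, 95% interval -0.98 to -0.59, adjusted p = 0.000368 from edgeR), and this interval did not reach those of *Stmn2* and *Stmn3*.

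*Stmn4*, the least abundant member, had 2142 and 2787 reads in WT and 1433 and 1640 reads in Nrf1-CKO. The genotypes did not overlap, but on the log2 scale the WT libraries differed from each other by 0.62, more than for any other member, at 24.5 and 37.6 CPM. The mean was 31.0 ± 9.27 CPM in WT and 18.5 ± 1.82 CPM in Nrf1-CKO (SD, n = 2), 1.67-fold lower. The log2 fold change was -0.74 (standard error 0.183, 95% interval -1.16 to -0.33, adjusted p = 0.0190 from edgeR). This call rested on the second WT library: without it the log2 fold change was -0.40 and the fold change no longer reached 1.4 (adjusted p = 0.136 from edgeR). A test against the 1.4-fold threshold itself, edgeR's glmTreat, also did not call *Stmn4* (adjusted p = 0.246).

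**Figure D1:**
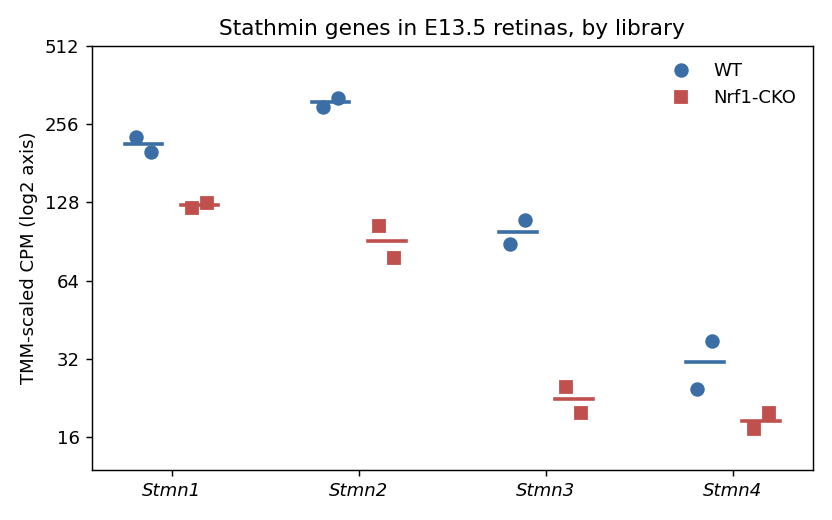
TMM-scaled CPM of the 4 stathmin genes (log2 axis) in each WT (circles) and Nrf1-CKO (squares) library, with the mean of each genotype as a line and no error bar. Both Nrf1-CKO points lie below both WT points for every gene, with the widest gap for *Stmn3* and a WT pair at 24.5 and 37.6 CPM for *Stmn4*.

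The changes had the same order of size in the normalized log2 values that the authors deposited. In the WT libraries these were 14.60 and 14.72 for *Stmn2* and 12.92 and 13.21 for *Stmn3*. In the Nrf1-CKO libraries they were 13.14 and 12.76 for *Stmn2* and 11.32 and 11.07 for *Stmn3*. *Stmn1* had 14.22 and 14.05 in WT and 13.36 and 13.42 in Nrf1-CKO. *Stmn4* had 11.30 and 11.81 in WT and 10.91 and 11.07 in Nrf1-CKO. On these values limma gave log2 fold changes of -1.87 for *Stmn3*, -1.71 for *Stmn2*, -0.75 for *Stmn1* and -0.57 for *Stmn4*.

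**Figure D2:**
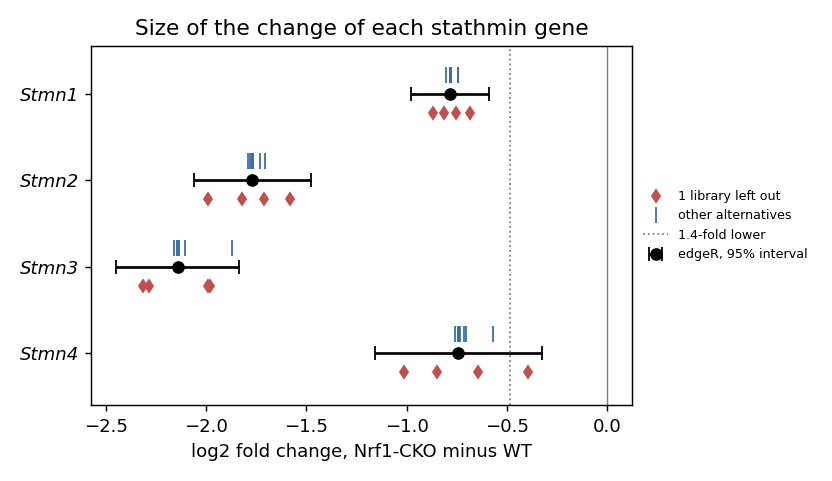
Log2 fold change of each stathmin gene, Nrf1-CKO minus WT, with its 95% interval (black), the values with 1 library left out (diamonds) and the other alternatives (ticks). The dotted line marks 1.4-fold lower, and 1 diamond of *Stmn4*, without the second WT library, lies to its right at -0.40.

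The balance between the members was compared within each library, where library scaling has no part. *Stmn2* had more reads than *Stmn1* in WT, with 1.31 and 1.61 reads per *Stmn1* read, and fewer in Nrf1-CKO, with 0.853 and 0.616. The ratio of *Stmn3* to *Stmn1* was 0.388 and 0.544 in WT and 0.204 and 0.156 in Nrf1-CKO. On the log2 scale these ratios were lower in Nrf1-CKO by a mean difference of -1.002 and -1.36. The ratio of *Stmn4* to *Stmn1* was 0.107 and 0.187 in WT and 0.141 and 0.156 in Nrf1-CKO, so that the genotypes overlapped and the mean log2 difference was 0.07. The ratio of *Stmn3* to *Stmn2* was 0.296 and 0.338 in WT and 0.240 and 0.253 in Nrf1-CKO. For 5 of the 6 pairs of members the genotypes did not overlap, and each of these gave an exact two-sided permutation p of 0.333, the smallest that 2 against 2 libraries allow. The pair of *Stmn4* and *Stmn1* gave an exact permutation p of 1.

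To compare levels between genes, reads were divided by the length of the merged exons and by the TMM-scaled library size (RPKM). In WT, *Stmn1* had the highest level with 112 ± 9.98 RPKM, followed by *Stmn3* with 87.1 ± 13.1, *Stmn2* with 55.5 ± 3.10 and *Stmn4* with 16.2 ± 4.84 (SD, n = 2). In Nrf1-CKO the levels were 64.8 ± 1.87 for *Stmn1*, 19.7 ± 3.17 for *Stmn3*, 16.3 ± 3.25 for *Stmn2* and 9.67 ± 0.950 for *Stmn4* (SD, n = 2). *Stmn3* and *Stmn2* were neighbours in this order whose library values overlapped in Nrf1-CKO. Their order depends on the length used, since with the longest transcript *Stmn2* had 91.2 ± 5.08 in WT and *Stmn3* 87.1 ± 13.1.

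The summed per-length level of the family was 263 and 278 RPKM in WT and 113 and 108 in Nrf1-CKO. *Stmn1* made up 45.2% and 37.6% of this sum in the WT libraries and 56.2% and 61.3% in the Nrf1-CKO libraries. Its share was thus 41.4% ± 5.38 in WT and 58.7% ± 3.61 in Nrf1-CKO (SD, n = 2), a difference of 17.3 percentage points without overlap (exact permutation p = 0.333, the smallest possible). The share of *Stmn3* went from 32.1% to 17.8%, that of *Stmn2* from 20.5% to 14.7% and that of *Stmn4* from 5.96% to 8.78% as means of the libraries.

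**Figure D3:**
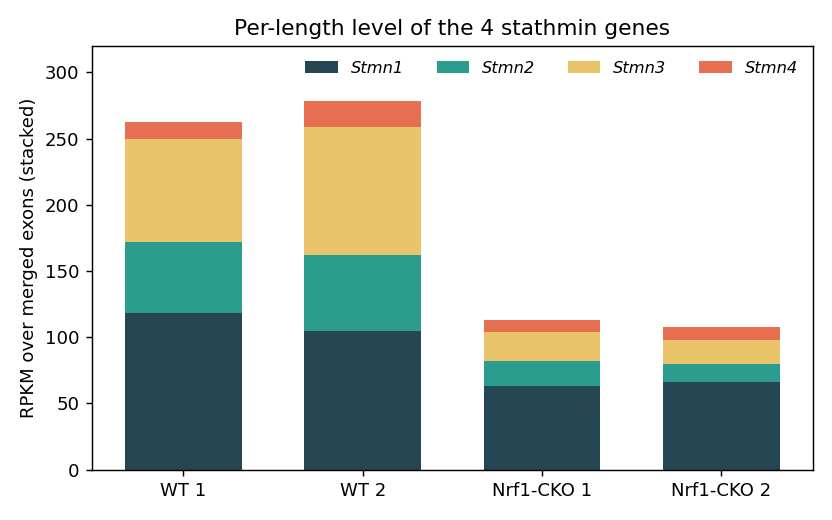
RPKM over merged exons of the 4 stathmin genes, stacked for each library from 0. The stacks reach 263 and 278 in WT and 113 and 108 in Nrf1-CKO, and *Stmn1*, at the bottom, takes 56.2% and 61.3% of the Nrf1-CKO stacks.

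*Stmnd1*, which encodes a protein with a stathmin domain, was at 0 reads in all 4 libraries, where 3 reads per library is the limit that a count of 0 allows for counting error alone.

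The genes next to the members on the chromosome were examined for a change of the wider region. On either side of *Stmn1*, *Pafah2* and *Paqr7* had log2 fold changes of 0.11 and -0.01 (adjusted p = 0.683 and 0.980 from edgeR). Around *Stmn3*, *Gmeb2* and *Rtel1* had log2 fold changes of 0.02 and -0.03 (adjusted p = 0.881 and 0.851 from edgeR). Next to *Stmn2*, *Hey1* had -0.18 (adjusted p = 0.175 from edgeR), and *Il7* did not pass the filter on low counts. Beside *Stmn4*, *Trim35* had -0.12 (adjusted p = 0.342 from edgeR), whereas *Adra1a*, an adrenergic receptor gene 273571 bases away, was called lower with a log2 fold change of -1.19 (adjusted p = 0.0910 from edgeR, standard error 0.44). Thus 1 of the 7 neighbours tested was called, beside 20.9% of all tested genes in either direction.

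The promoter table from RefSeq held *Stmn3*, the member with the largest change, and its 250 bases before the start site are shown for that reason. They are chr2:181314501-181314750 of GRCm38.p6, written 5′ to 3′ on the minus strand.
Stmn3 promoter: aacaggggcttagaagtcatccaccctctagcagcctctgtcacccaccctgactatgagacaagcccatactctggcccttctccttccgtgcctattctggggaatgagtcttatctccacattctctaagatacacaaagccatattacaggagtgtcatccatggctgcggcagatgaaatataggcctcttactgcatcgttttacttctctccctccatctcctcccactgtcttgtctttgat
The GC content of these bases was 48.8%, and the median over promoters was 52.4%. The core of the NRF1 motif, GCGCATGCG, was not found on either strand of the 300-base promoter of *Stmn3*, nor was its looser form GCGCANGCG, which includes the core. These letters occurred in 1.75% and 6.25% of the 32851 promoters of the same length. Parts of the RE1 element bound by Rest, TTCAGCACC and GGACAGCGC, are held by 0.371% and 0.405% of promoters and were not found here either. The E2F motifs TTTCGCGC and TTTGGCGC (0.323% and 0.514% of promoters) and the TATA box letters TATAAA (13.6%) were also not in this window.

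The tested genes whose level moved most like each member over the 4 libraries were found by the distance between mean-centred log2 CPM, among 11326 genes with a mean of at least 5 CPM. These values are descriptions and carry no test of likeness. *Stmn2* was nearest to *Crabp1*, which encodes a retinoic acid-binding protein, at a distance of 0.0347. *Crabp1* had 26837 and 23998 reads in WT and 8889 and 6511 reads in Nrf1-CKO, close to those of *Stmn2* in each library. The next were *Ebf3*, a transcription factor gene of RGCs (0.0796), and *Scg3*, which encodes secretogranin III of secretory granules (0.0879).

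*Stmn3* was nearest to *Fam69c* (distance 0.112), to *Gng4*, which encodes a G protein gamma subunit (0.134), and to *Actl6b*, a subunit of the chromatin remodelling complex of neurons (0.173). *Actl6b* had 1042 and 1106 reads in WT and 324 and 237 in Nrf1-CKO. *Stmn1* was nearest to *Fgd3*, a guanine nucleotide exchange factor gene (0.0734), with *4930452B06Rik* (0.0844) and the tektin gene *Tekt1* (0.0914) behind it. *Stmn4* was nearest to the F-box gene *Fbxl15* (0.127), followed by *Igsf21* (0.153) and *Wscd2* (0.186). Among the members themselves, *Stmn2* and *Stmn3* were closest (0.390), then *Stmn1* and *Stmn4* (0.580), and the other 4 pairs were between 1.08 and 1.496 apart.

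Kinases, phosphatases and binding partners of stathmins were described from a list of 27 genes, all of which were tested. Of these 5 were called lower and 1 higher, and the median log2 fold change was -0.07. Among all tested genes 8.04% were called lower, 12.8% higher and 20.9% in either direction. *Cdk5r1*, which encodes the p35 activator of Cdk5, had 8562 and 7910 reads in WT and 3735 and 3213 reads in Nrf1-CKO, with a log2 fold change of -1.29 (adjusted p = 9.88e-05 from edgeR, standard error 0.0949). *Cdk5* itself was not called (-0.28). *Mapk10* and *Mapk8*, which encode the kinases JNK3 and JNK1 that phosphorylate stathmins, fell by 0.84 and 0.52 on the log2 scale. The p21-activated kinase gene *Pak1* fell by 0.66 on the log2 scale. The call of *Mapk8* was lost with upper-quartile scaling, with glmTreat and without the second Nrf1-CKO library, and its log2 fold change stayed negative in each case.

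*Rgs20*, whose product binds Stmn2, was called lower on few reads, with 38 and 44 in WT and 8 and 8 in Nrf1-CKO, and it was not called by limma on the deposited values. *Camk4*, a calcium-dependent kinase gene, was the 1 gene called higher (0.63, adjusted p = 0.00279 from edgeR), and glmTreat did not call it. *Mapk3*, *Cdk1*, *Aurkb* and *Prkaca*, which encode further kinases known to act on Stmn1, had log2 fold changes between -0.15 and -0.04 and were not called. The transferase genes *Zdhhc3* and *Zdhhc7*, whose products add palmitate to proteins of the Golgi, had 0.01 and 0.08.

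Regulators known to act on stathmin transcripts formed a list of 6 genes with a median of 0.01, whose sign changed under 3 of 16 alternatives. None of the 6 was called by edgeR, DESeq2, the exact test or limma, and 1 had an unadjusted p under 0.05 in edgeR. That gene was *Rest*, which encodes a repressor of neuronal genes, with 9733 and 8125 reads in WT and 11691 and 12618 in Nrf1-CKO. The genotypes of *Rest* did not overlap, and its log2 fold change was 0.41 (adjusted p = 0.00574 from edgeR), which is under 1.4-fold. *Tardbp*, which encodes the RNA-binding protein TDP-43 that protects the splicing of human *STMN2* transcripts, had 0.0014.

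Other proteins that shorten or cut microtubules were compared with the stathmins. Of 15 genes for depolymerases and severing enzymes 14 were tested and *Kif2b* was at 0 reads. In this group 1 gene was called lower, the kinesin gene *Kif19a* (-1.03, adjusted p = 0.00642 from edgeR), and 1 higher, *Fign* (0.57, adjusted p = 0.00227 from edgeR), which encodes the severing enzyme fidgetin. The call of *Fign* was lost with glmTreat and without the first Nrf1-CKO library. Calls in the same directions made up 8.04% and 12.8% of all tested genes, so these counts do not set the group apart. The median of the group was -0.02, and it turned positive with upper-quartile scaling and without the first WT library.

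Proteins that stabilize microtubules or bind their plus ends formed a list of 25 genes, of which 14 were called lower and none higher by edgeR, DESeq2, the exact test or limma, while 1 had an unadjusted p under 0.05 in edgeR in the higher direction. Among all tested genes 8.04% were called lower and 12.8% higher. With glmTreat 11 of the 25 genes were called lower, and with upper-quartile scaling 12. The median log2 fold change of the list was -0.51, and 3 of the 25 genes were picked by the study from these libraries. Without those 3 the median of 22 genes was -0.44. *Mapt*, which encodes tau, had 10195 and 10449 reads in WT and 2734 and 1457 reads in Nrf1-CKO, a log2 fold change of -2.35 (adjusted p = 0.000294 from edgeR, standard error 0.243). The doublecortin gene *Dcx* fell by 1.58, and the collapsin response mediator genes *Crmp1*, *Dpysl4* and *Dpysl3* fell by 1.53, 1.12 and 1.11 on the log2 scale.

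Tubulins, the subunits that stathmins bind, were 15 genes with 6 called lower and 2 higher, against 8.04% and 12.8% of all tested genes. Their median was -0.31. With glmTreat 4 were called lower and 2 higher, and with limma 4 lower and 0 higher. Upper-quartile scaling gave 5 lower and 3 higher. *Tubb3* and *Tubb2a* were picked by the study from these libraries, and without them the median of 13 genes was -0.29. *Tubb3*, the neuronal beta-tubulin, had 116608 and 113552 reads in WT and 53316 and 45687 reads in Nrf1-CKO (log2 fold change -1.26, adjusted p = 0.00013 from edgeR). *Tubb2a*, *Tubb2b* and *Tuba1a* fell by 1.36, 1.12 and 0.98 on the log2 scale. *Tubb4a* fell by 0.55 on the log2 scale, and its call was lost with glmTreat, with limma and without the second Nrf1-CKO library. *Tubb5*, with 350272 and 308851 reads in WT, had a log2 fold change of -0.31 and was not called. *Tuba4a* was called higher (0.90) except by limma, and *Tuba8* was called higher on 2 and 2 reads in WT against 42 and 17 in Nrf1-CKO. The call of *Tuba8* was lost with limma and without the first Nrf1-CKO library, and the median of the list was also -0.31 with *Tuba8* at the bound set by 3 reads over the WT libraries. Reads of tubulin genes can be shared with close copies, so their counts are uncertain.

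**Figure D4:**
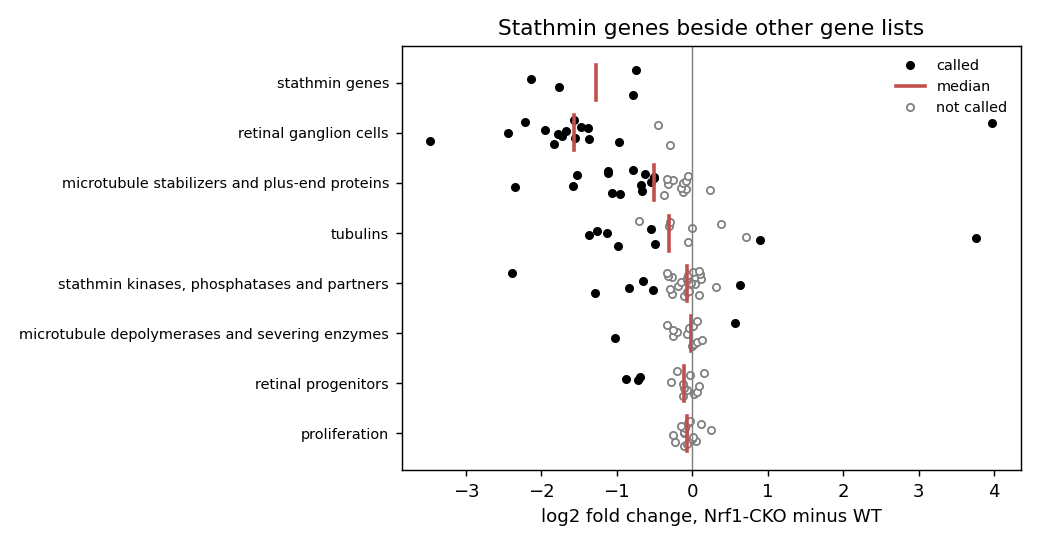
Log2 fold change, Nrf1-CKO minus WT, of each tested gene of the stathmin family and of 7 gene lists, with called genes filled, other genes open and the median as a line. The median of the stathmin genes is -1.28, between those of the RGC markers (-1.56) and of the microtubule stabilizers (-0.51), and the progenitor (-0.11) and proliferation (-0.08) medians lie near 0.

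Markers of the cell types in the sample moved beside the stathmin genes. Of 17 RGC markers 14 were called lower and 1 higher, beside 8.04% and 12.8% of all tested genes, and 13 of the 17 were picked by the study from these libraries. Their median was -1.56, and their summed level was 1971 and 2259 CPM in WT and 850 and 677 CPM in Nrf1-CKO, lowest in the same library as *Stmn2* and *Stmn3*. On the log2 scale, the synuclein gene *Sncg* fell by 2.44, the glutamate transporter gene *Slc17a6* fell by 2.22 and the transcription factor gene *Pou4f3* fell by 3.48. On the deposited normalized values *Slc17a6* fell by 1.52 and *Pou4f3*, which had 139 and 184 reads in WT and 20 and 10 in Nrf1-CKO, fell by 0.75. *Thy1*, the 1 marker called higher, had 1 and 1 reads in WT and 11 and 25 in Nrf1-CKO, and limma did not call it. With *Thy1* at the bound set by 3 reads over the WT libraries, the median of the list was also -1.56. The 4 markers not picked by the study, *Atoh7*, *Pou4f3*, *Rbpms* and *Thy1*, had a median of -0.37. The part of this change in RGC markers in the values of the stathmin genes was not tested.

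Of 14 progenitor markers 3 were called lower, *Ccnd1* (-0.88), *Hes5* (-0.72) and *Fgf15* (-0.70), beside 8.04% of all tested genes. *Ccnd1* and *Fgf15* were picked by the study from these libraries. The summed level of the list was 9146 and 9765 CPM in WT and 7280 and 7849 CPM in Nrf1-CKO. The call of *Hes5* was lost without the second WT library. None of 15 proliferation genes was called by edgeR, DESeq2, the exact test or limma, and 3 had an unadjusted p under 0.05 in edgeR. Their median was -0.08 and their summed level 5970 and 5656 CPM in WT and 5512 and 5514 CPM in Nrf1-CKO. CPM is relative to all counted reads and does not count cells. In sections at this stage the study counted fewer progenitors in S phase and in M phase in Nrf1-CKO. *Stmn1* went from 228 and 201 to 122 and 127 CPM in the same libraries. A link between this fall and proliferation was not tested.

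Of 7 photoreceptor precursor markers 2 were called lower (median -0.31), beside 8.04% of all tested genes, and 1 without the first WT or the second Nrf1-CKO library, with upper-quartile scaling, with glmTreat and with limma. On the deposited normalized values the median was -0.16. Of 7 amacrine and horizontal cell markers 4 were called lower and 2 higher, beside 8.04% and 12.8% of all tested genes, with a median of -0.65. Without *Ptf1a*, which the study picked from these libraries, the median of the other 6 was -0.33, and on the deposited normalized values that of all 7 was -0.26. No amacrine or horizontal marker was called higher by edgeR without the first Nrf1-CKO library, and 1 was without the second WT library.

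Markers of tissues outside the neural retina were mostly higher in Nrf1-CKO, beside 12.8% of all tested genes called higher. All 8 lens markers were called higher with a median of 4.44, which was 3.63 without the first Nrf1-CKO library, 5.34 without the second WT library and 3.46 on the deposited normalized values. Called higher were also 5 of 7 tested for pigment epithelium (median 1.05), 6 of 7 for macrophages and microglia (1.53, with 2 of the 7 picked by the study) and 4 of 6 for endothelium (1.02, with 1 lower). The summed level of the endothelial list overlapped between the genotypes, at 255 and 259 CPM in WT and 258 and 247 CPM in Nrf1-CKO, and the gene called lower was the receptor gene *Kdr* (-0.55). For periocular mesenchyme 6 of 8 were called higher (0.79), and 4 with glmTreat, with limma or at an adjusted p of at most 0.05. On the deposited normalized values the median of this list was 0.49. For erythroid cells 2 of 4 tested were called higher (0.46), a count of 0 without the first WT library, with glmTreat and with limma, and of 1 with DESeq2 or without any one of the other libraries. With the markers of these tissues left out of library sizes and scaling, the log2 fold change of *Stmn4* was -0.74 as before. The calls of all 4 stathmin genes were kept. Only the listed genes were left out, and other RNA of those tissues stayed in the libraries. The effect of that RNA on the stathmin values was not tested.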

How the data were processed

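RNA-seq of pooled E13.5 retinas was analysed from 2 WT and 2 Nrf1-CKO libraries. The authors aligned paired 100-base reads to mm10 with TopHat2 (2.7.2 in the submitters' processing notes), counted them per gene with HTSeq and deposited whole-number counts. They also deposited normalized values on a log2 scale. The submitters' processing notes also list DESeq and limma without their role, so which of them made the normalized values, and the annotation release, are not given in the sources used here. The header lines of both tables hold extra tabs, and the 4 column names, which give Mut or Ctrl and a number, were read in order. The HTSeq summary rows, 74.0% to 75.0% of all entries, stayed out of library sizes and tests, and 54.6% to 58.0% of entries were alignments that were not unique. Whether counting used strand is not given in the sources used here.

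Genes were filtered with edgeR's filterByExpr (minimum count 10), scaled with TMM factors and tested by quasi-likelihood in edgeR 4.0.16 (R 4.3.3). The fit used ~ group over 4 libraries, and the biological coefficient of variation was 12.0%. Each standard error was the log2 fold change divided by the root of its F value. The Cuffdiff step of the study needs aligned reads and was not repeated. Alternatives were DESeq2 1.42.0, limma 3.58.1 on the deposited values, the exact test and glmTreat of edgeR, other scalings, filters and thresholds, a replicate block, and each library left out. A pseudocount was not varied, since those values were already log2. The code was tested on simulated data. Intervals reflect the counting error and spread of 2 libraries per genotype.

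The members and gene lists were chosen with earlier results of these data known. Named genes were the rows with stathmin names, up to 5 called genes per direction of each microtubule list and up to 3 of each cell type list, the 3 genes most like each member and the nearest coding genes of the table. *Cdk5*, *Rest*, *Tardbp*, *Tubb5*, *Atoh7*, *Rbpms*, the genes for further kinases and palmitoyl transferases, and *Nrf1* were named in addition, after their values were seen. Coordinates, lengths and coding sequences come from GENCODE (GRCm38), and 1 member had a promoter in the RefSeq table. A comparison of the proteins was not run. The results for 2 further genes are not reported here.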

Additional observations from a re-analysis of the deposited data

How the results depend on the processing

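Over 16 alternatives, *Stmn1*, *Stmn2* and *Stmn3* kept their direction and their call in each. *Stmn4* kept its direction and lost its call under glmTreat (-0.74) and without the second WT library (-0.40). With each library left out, the log2 fold change lay between -0.87 and -0.69 for *Stmn1*, -1.99 and -1.58 for *Stmn2*, -2.32 and -1.98 for *Stmn3* and -1.02 and -0.40 for *Stmn4*. Between 3 and 4 members were then called, with 1071 to 1402 genes lower, 1703 to 1856 higher and 78 to 87 list genes called. Against 1268 genes lower and 2024 higher, glmTreat called 743 and 1188, and limma on the deposited values 723 and 945. These fewer calls follow for glmTreat from testing against 1.4-fold, and for limma the cause was not tested. The difference in the share of *Stmn1* was 13.54 to 21.1 percentage points with each library left out.

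The replicate numbers are not stated to mark shared litters, and the within-genotype differences had a correlation of -0.00701 over 15762 genes. With the replicate number as a block, the log2 fold changes were -0.78, -1.78, -2.14 and -0.71 for *Stmn1* to *Stmn4*, with 1256 genes called lower and 1970 higher, and no member's call changed. Depth did not limit the members, each of which had at least 1433 reads in every library, and 2 libraries per genotype limit the precision.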
